A study of Mus musculus with 2 samples.

Results

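Polycomb and Trithorax proteins are chromatin regulators, and their genes are described here by the CpG states that SCoTCH-seq read on them in mouse embryonic stem cells (mESCs). SCoTCH-seq reads C, 5-methylcytosine (mC, M) and 5-hydroxymethylcytosine (hmC, H) on both strands of the same DNA fragment, so that each CpG site is called as 1 of 9 states. CC is unmodified, MM is methylated on both strands, MC/CM is hemimethylated, HC/CH carries hmC opposite C, HM/MH carries hmC opposite mC, and HH carries hmC on both strands. The members are 41 protein-coding genes of 21938 in GENCODE vM21, chosen by name. The CpG sites used are those inside each gene span (GRCm38) with 5 kb upstream added. These spans held 16500 of the 13676795 covered sites in replicate 1, and 6724 of 4918612 in replicate 2. The cells are E14 mESCs, an established line, grown in serum with LIF on gelatin without feeder cells named in the labels. The 2 replicates are DNA of 2 passages of that line in 1 condition, with no treatment and no genotype contrast, so differences are described within the genome and not between samples.

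Polycomb complexes keep developmental genes silent. PRC2 methylates histone H3 at lysine 27 and PRC1 ubiquitinates histone H2A. Trithorax proteins of the COMPASS family instead methylate histone H3 at lysine 4, and PR-DUB removes the ubiquitin that PRC1 adds. In mESCs both systems meet at CpG-rich promoters. hmC is made from mC by Tet enzymes and is found in the bodies of transcribed genes.

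Coverage in the member spans was 173213 calls in replicate 1 and 43453 in replicate 2, with a median depth of 9 and 6 calls per site and with 6120 sites covered in both. Promoters, defined here by 1 kb on each side of the start of the principal transcript, were covered at 32.5% of their reference CpGs in replicate 1 and 11.4% in replicate 2. The rest of the body, meaning the gene after its first intron and outside the promoter, was covered at 68.0% and 28.1%. Regions are set from the principal start, so gene sequence more than 5 kb upstream of it enters no region level, except where another start is named. That start lies 38480 bp inside the span at Cbx7, 34093 bp at Phc2, 30759 bp at Pcgf5 and 6907 bp at Ash2l. The gap was widest at Phf19, a PRC2 accessory protein that reads lysine 36 methylation: no site among its 121 promoter CpGs or the 15 of its first intron was covered in either replicate, and the most 5′ covered site lay at position 34903424 in replicate 1 against a start at 34913976 on chromosome 2. Phf19 therefore has body values only. Among pluripotency genes, the promoters of Pou5f1, Sox2 and Klf4 had CC levels of 98.5%, 99.8% and 99.6% in replicate 1, and those of Nanog and Esrrb 84.4% and 86.1%. The median over all protein-coding genes was 85.6%, and no other cell type was read, so these values do not test cell identity. Levels are means of per-site percentages as called, errors are SDs of the 2 replicates, and the level of a gene region needs at least 5 covered sites. Unless named as corrected, values were not adjusted for miscalls, which differed between the libraries: MM was called as HM/MH at 4.51% of calls on spike-in duplexes in replicate 1 and 0.467% in replicate 2. The rates of the modified states rest on few duplex sites, such as 2 for MM and 1 for HM, so corrected values are uncertain.

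The promoters of the members with the lowest and the highest CC are shown, and the other start of Phc2 beside them, each from 250 bases before to 50 bases after the GENCODE start, 5′ to 3′ on the strand of the gene, with every CpG in capitals (GRCm38.p6). The Phc2 start of the principal transcript (chr4:128688545-128688844, plus strand) had the lowest promoter CC by the mean of the replicates, that of Pcgf5 (chr19:36378818-36379117, plus strand) the next, and that of Kmt2a (chr9:44881247-44881546, minus strand) was at the maximum. The other Phc2 start, at the 5′ end of its span (chr4:128654452-128654751, plus strand), lies 34093 bp upstream.
Phc2, principal start: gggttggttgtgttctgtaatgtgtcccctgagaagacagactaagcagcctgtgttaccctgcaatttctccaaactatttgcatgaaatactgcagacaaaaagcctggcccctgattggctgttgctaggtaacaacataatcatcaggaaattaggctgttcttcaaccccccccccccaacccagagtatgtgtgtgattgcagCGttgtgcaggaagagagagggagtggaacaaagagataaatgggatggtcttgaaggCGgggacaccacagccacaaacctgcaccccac
Pcgf5, principal start: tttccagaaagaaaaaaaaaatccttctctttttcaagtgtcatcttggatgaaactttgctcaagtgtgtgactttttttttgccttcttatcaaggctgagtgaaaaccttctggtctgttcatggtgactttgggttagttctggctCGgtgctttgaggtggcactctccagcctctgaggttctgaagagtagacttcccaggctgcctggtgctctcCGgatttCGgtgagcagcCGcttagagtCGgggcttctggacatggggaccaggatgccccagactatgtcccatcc
Kmt2a, principal start: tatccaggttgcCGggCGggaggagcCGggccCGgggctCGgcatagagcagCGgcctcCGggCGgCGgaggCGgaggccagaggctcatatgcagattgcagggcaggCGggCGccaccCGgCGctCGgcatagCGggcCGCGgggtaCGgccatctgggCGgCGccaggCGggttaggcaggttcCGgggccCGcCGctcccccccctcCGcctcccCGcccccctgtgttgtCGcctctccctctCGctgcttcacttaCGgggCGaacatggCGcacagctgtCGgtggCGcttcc
Phc2, 5′ start of the span: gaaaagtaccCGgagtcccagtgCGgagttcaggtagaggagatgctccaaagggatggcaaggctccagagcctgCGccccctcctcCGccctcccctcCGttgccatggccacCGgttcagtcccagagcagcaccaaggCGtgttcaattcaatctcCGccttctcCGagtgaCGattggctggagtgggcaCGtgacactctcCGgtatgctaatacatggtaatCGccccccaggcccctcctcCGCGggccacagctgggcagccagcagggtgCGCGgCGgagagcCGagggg
These 300 bases hold 2 CpGs at the principal start of Phc2, 5 at Pcgf5, 34 at Kmt2a and 19 at the upstream start of Phc2. Over the full 2 kb promoter the members had a median of 124 reference CpGs, from 15 at Dpy30 to 258 at Kmt2c, against 63 over all protein-coding genes, and 38 of the 41 lay above that value.

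The member promoters were mostly unmodified. Their median CC was 96.7% in replicate 1 (40 genes) and 98.2% in replicate 2 (36 genes), against 85.6% and 85.7% over all protein-coding genes with a level. Of the 36 members with a level in both replicates, 28 lay above the all-gene median in both and 4 below it in both, where 43.2% of all genes lay above in both. Among genes with at least 20 promoter sites in each replicate, 12 of 12 members and 74.6% of 3199 genes lay above in both. Here and below, the median used for such counts is that over genes with a level in both replicates. This is a description of a list chosen by name and was not tested. The highest values were those of Rybp, a subunit of variant PRC1, and Kmt2a, a COMPASS methyltransferase of the MLL kind, at 100% in each replicate. Mtf2, which brings PRC2 to CpG islands, had 99.6% and 100%, and Cbx7, a chromodomain subunit of canonical PRC1, had 100% and 99.5%. Kmt2b, the paralogue of Kmt2a, had 99.6% in each. The PRC2 core showed the same levels, with 99.6% and 98.5% at Ezh2, its catalytic subunit in mESCs, 99.0% and 99.0% at Suz12, and 98.9% and 98.2% at Eed, which binds methylated lysine 27. Ezh1, the second methyltransferase, differed between replicates, at 84.0% over 43 sites and 97.9% over 6 sites.

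**Figure D1:**
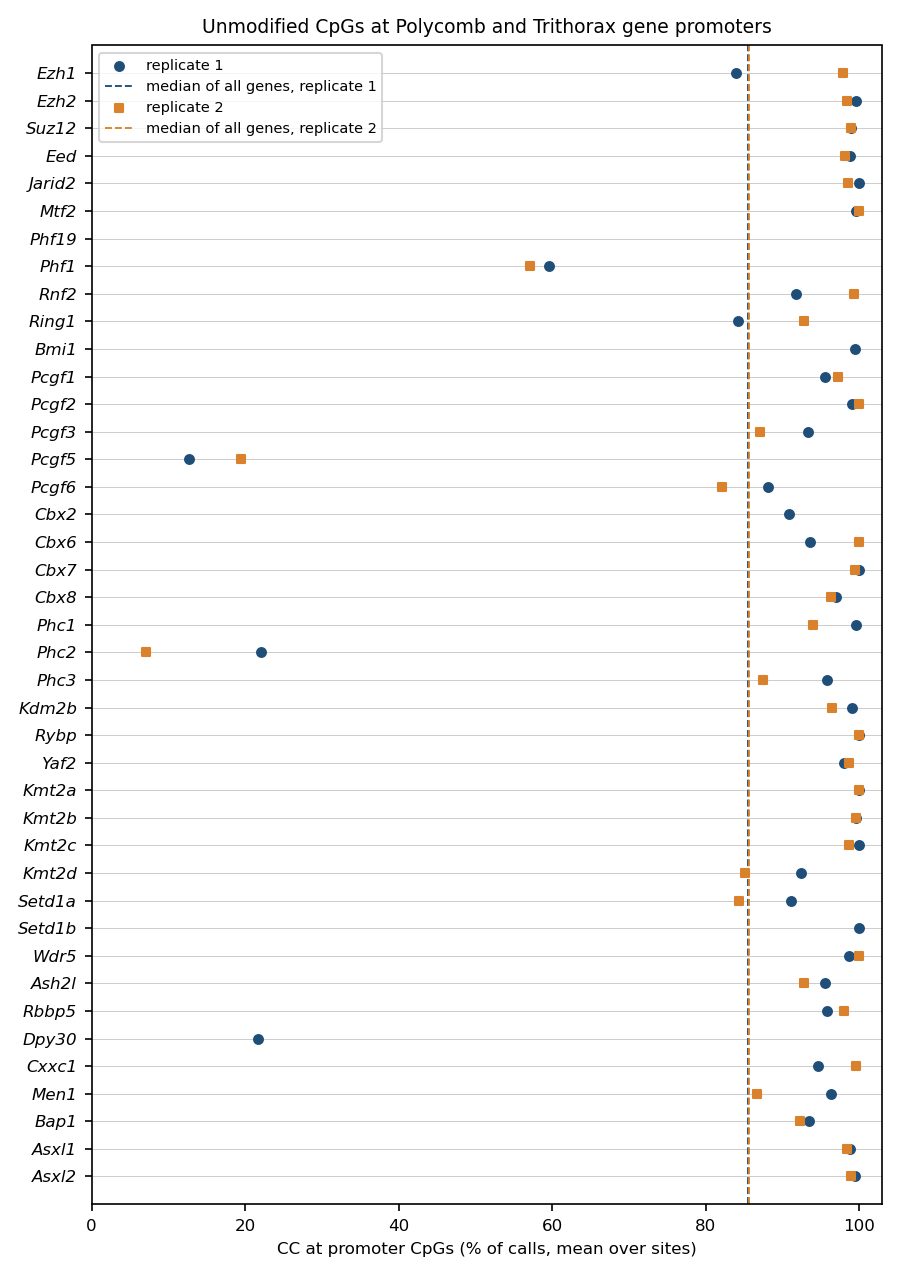
CC level at promoter CpGs (horizontal axis, % of calls, mean over sites) for each member (vertical axis, ordered by complex) in replicate 1 (circles) and replicate 2 (squares), with dashed lines at the median of all protein-coding genes. Phc2, Pcgf5, Phf1 and, in replicate 1, Dpy30 lie below 60%, and points are absent where fewer than 5 sites were covered.

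A few members stood apart at the start of their principal transcript. Phc2, a polymerising subunit of PRC1, had a promoter CC of 22.1% in replicate 1 (19 sites) and 7.14% in replicate 2 (9 sites), with MM at 61.4% and 69.7%. Pcgf5, which with RING1 proteins forms a variant PRC1, had a CC of 12.7% and 19.5% and an MM of 56.6% and 50.2%. Phf1, a PRC2 accessory subunit, was intermediate at 59.6% over 21 sites and 57.1% over 6. At these 3 genes both replicates lay below every other member with a level in both. Dpy30, a subunit that all COMPASS complexes share, had 21.7% over 9 sites in replicate 1 and only 1 covered site in replicate 2. Pcgf6, a subunit of another variant PRC1, had 88.1% and 82.1%, and Setd1a, a SET1-type methyltransferase, had 91.2% and 84.3%.

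At Phc2 and Pcgf5 the value depended on which annotated start was read. Of 3 RefSeq entries for Phc2, 0 lay over the principal start and 1 over the 5′ end of the span. Of 3 for Pcgf5, 1 lay over the principal start. At the 5′ end of the Phc2 span, the promoter CC was 74.3% over 45 sites and 68.3% over 18 sites. At Pcgf5, where the other start lies 30759 bp upstream, it was 90.01% over 14 sites and 76.7% over 5 sites. Cbx7 has starts 38480 bp apart, and both were unmodified, with 98.1% and 98.3% at the upstream start. At Ash2l, a shared COMPASS subunit, the upstream start 6907 bp away had 76.4% and 72.3%, below the 95.5% and 92.9% of the principal start. Dpy30 gave the reverse picture within its body: a 1 kb window 7 kb after the principal start, 19 bp from the start of another Dpy30 transcript, had a CC of 99.5% over 37 sites and 100% over 9 sites.

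Modified states were rare at the remaining promoters. The median MM of member promoters was 1.30% in replicate 1 and 0.401% in replicate 2, against 7.96% and 7.5% over all genes. The median HC/CH was 0.450% and 0, against 1.80% and 1.67%. Of 36 members, 25 had less HC/CH than the all-gene median in both replicates, where 36.9% of all genes did, and 8 had more, where 36.9% did. Among genes with at least 20 promoter sites in each replicate, 1 of 12 members and 15.7% of 3199 genes had more in both. By the mean of the replicates, the promoters with most HC/CH among members with a level in both were Pcgf5, at 5.47% and 10.5%, Phf1, at 4.98% and 8.61%, and Phc2, at 7.01% and 5.56%. The same 3 promoters had the most MM. Setd1a, at 3.53% and 13.2%, and Pcgf6, at 6.01% and 10.2%, followed in MM. Rybp, Phc1, Pcgf2, Mtf2, Kmt2c, Jarid2, Cbx7 and Kmt2a had an MM level of 0 in both replicates.

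The unmodified region extended beyond the promoter. Averaged over member sites, CC was 96.8% in the 500 bp before the start and 96.1% in the 500 bp after it in replicate 1, against 85.8% and 87.9% over all genes. At 1 to 1.5 kb it was 79.5% and at 2 to 2.5 kb 53.6%, against 58.3% and 34.8% over all genes. In replicate 2 the member values at these distances were 80.3% and 50.7%. Upstream, between 5 and 1 kb before the start, the median member CC was 44.5% and 49.4%, against 22.6% and 19.7% over all genes. In replicate 1, 36 members had a run of 500 bp bins around the start with a mean CC of 80% or more, with a median length of 3250 bp and a range from 1500 to 10500 bp. Runs over all protein-coding genes are not given here, so this count and these lengths are not read against the genome. The longest run was that of Jarid2, a PRC2 accessory protein that aids its recruitment, which reached from 3500 bp before to 7000 bp after the start. Runs of 7000 bp were found at Eed, Cbx7, Phc1 and Asxl2. Bins with fewer than 3 sites were passed over in these runs, so that 12 bins of the Jarid2 run and 7 of the Asxl2 run had a level, and a length may span bins that were not measured. In replicate 2, where more bins are empty, the runs were longer, with a median of 5500 bp and a range from 2500 to 13000 bp, so that their lengths are not resolved. The profile ends 5 kb upstream, where the replicate 1 runs of Phc1, Setd1b and Asxl2 stop.

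**Figure D2:**
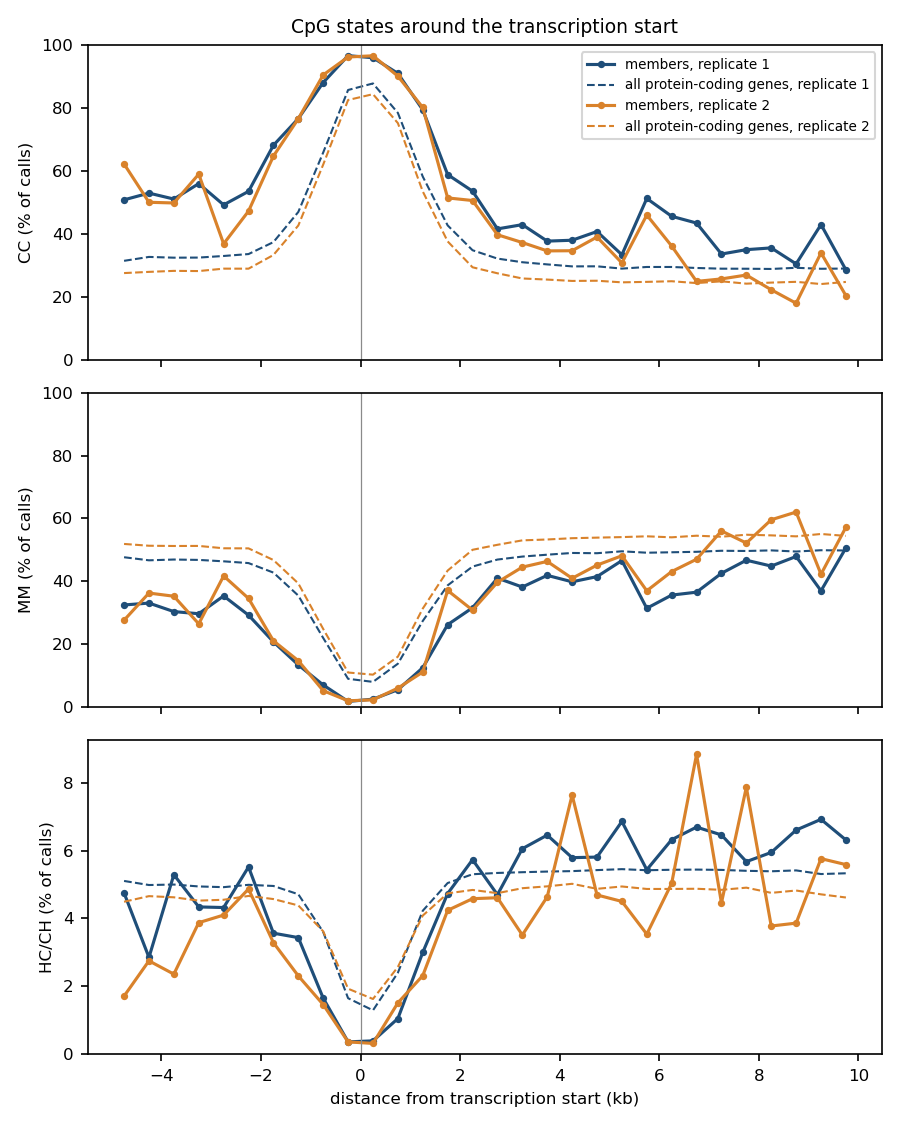
CC, MM and HC/CH levels (vertical axes, % of calls, mean over sites) in 500 bp bins from 5 kb before to 10 kb after the transcription start (horizontal axis, kb), for the members (solid) and all protein-coding genes (dashed) in replicates 1 and 2. Member CC lies above the all-gene line from 5 kb upstream to 9500 bp downstream in replicate 1 and to 8000 bp downstream in replicate 2. Member HC/CH falls to 0.36% in the 500 bp before the start.

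In the rest of the body, HC/CH was the state in which the members lay most often on 1 side of the all-gene median. Their rest-of-body HC/CH had medians of 6.73% and 5.65% in replicates 1 and 2 (mean 6.19% ± 0.77, SD, n = 2), against 4.96% and 4.08% over all genes. Of 41 members, 33 lay above the all-gene median in both replicates and 5 below it in both, where 38.5% of all genes lay above in both. Among genes with at least 20 sites in each replicate, 28 of 35 members and 42.6% of 13204 genes lay above in both. Corrected with the call rates of the replicates, the member medians were 6.40% and 5.70%, against 4.51% and 4.07%. In the first intron the median member HC/CH was 4.84% and 3.75%, against 4.88% and 4.21% over all genes, with 7 of 21 members above and 8 below in both replicates, where 36.1% of all genes lay above and 36.1% below, while 15 of the 21 lay above the all-gene median of CC in both, where 43.4% of all genes did. Member levels in the rest of the body correlated between replicates with a Pearson r of 0.61 and a Spearman rho of 0.60 over 35 genes, which share the genome and differ in depth, and 27 of the 35 were higher in replicate 1.

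HM/MH as called lay closer to the genome than HC/CH did. The median rest-of-body HM/MH was 4.51% and 3.20%, against 4.31% and 2.66%. Of 41 members, 19 lay above the all-gene median in both replicates and 6 below it in both, where 31.8% of all genes lay above and 31.8% below. Among genes with at least 20 sites in each replicate, 18 of 35 members and 35.9% of 13204 genes lay above in both. With the correction the HM/MH medians fell to 2.25% and 2.81%, against 1.62% and 2.28% over all genes. In replicates 1 and 2, 28 and 30 of 41 members then lay above the all-gene median, beside 34 and 35 for corrected HC/CH. The replicates agreed less on HM/MH, with a Pearson r of 0.35 and a Spearman rho of 0.28. Median MM was 55.8% and 56.6%, against 57.7% and 62.6%, and 23 of 41 members lay below the all-gene median in both replicates, where 42.1% of all genes did. Median MC/CM was 10.9% and 12.5%, against 12.4% and 14%, and 24 of 41 members lay below in both, where 37.9% of all genes did. Members are ranked here only where at least 20 sites were covered in each replicate, which leaves out Phf1, Ring1, Bmi1, Pcgf1, Cbx8 and Bap1. As called, the ranked members with most HM/MH by the mean of the replicates were Ash2l, at 5.44% and 6.04%, Cbx2, at 4.46% and 6.20%, Kmt2d, at 5.54% and 4.83%, Cxxc1, at 4.52% and 5.80%, and Kmt2b, at 5.87% and 4.36%. Those with least were Cbx6, at 1.79% and 1.61%, Dpy30, at 3.09% and 2.64%, Mtf2, at 3.38% and 2.96%, Ezh1, at 4.17% and 2.32%, and Rbbp5, a shared COMPASS subunit, at 4.15% and 2.37%. After correction the 5 highest were Cxxc1, at 3.26% and 5.56%, Ash2l, at 2.57% and 5.77%, Cbx2, at 1.75% and 5.96%, Jarid2, at 2.99% and 4.69%, and Phc1, at 4.01% and 3.62%, and Cbx6 was again the lowest of the ranked members. Among the ranked members MM was highest at Pcgf3, at 64.2% and 71.9%, at Wdr5, a shared COMPASS subunit, at 62.2% and 71.2%, at Yaf2, at 63.4% and 68.5%, at Ezh2, at 64.7% and 66.8%, and at Kmt2b, at 59.4% and 70.9%. It was lowest at Cbx6, at 21.8% and 26.6%, Cbx7, at 23.1% and 31.2%, Cxxc1, at 27.3% and 28.9%, Setd1b, at 23.2% and 33.8%, and Dpy30, at 27.3% and 32.6%. HH was low, with a median of 0.506% in replicate 1 and 0.253% in replicate 2, against 0.4485% and 0 over all genes. On spike-in duplexes, MM was called as HH at 0.709% of calls in replicate 1 and 0.0117% in replicate 2.

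**Figure D3:**
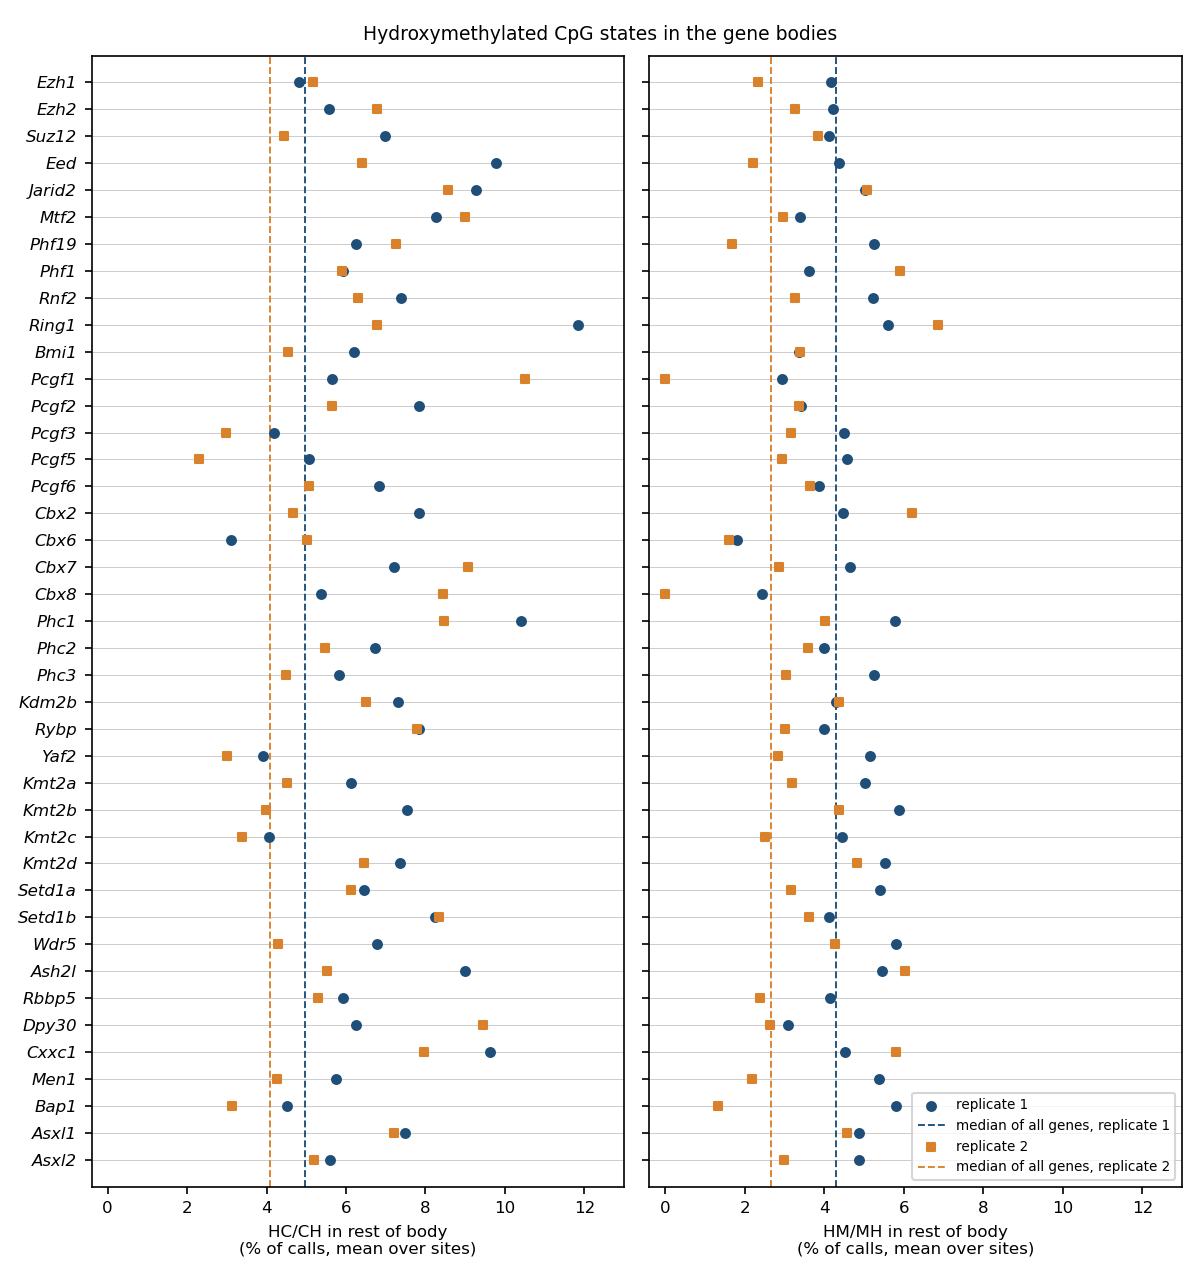
HC/CH (left) and HM/MH (right) in the rest of the body (horizontal axes, % of calls, mean over sites) for each member in replicates 1 (circles) and 2 (squares), with dashed lines at the all-gene medians. Most members lie to the right of the lines for HC/CH, Yaf2, Pcgf3, Kmt2c and Bap1 lie to the left in both replicates, and for HM/MH the points straddle the lines.

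Among the PRC2 genes, Jarid2 had an HC/CH of 9.27% from 601 sites in replicate 1 and of 8.57% from 281 sites in replicate 2, and so lay above 97.3% and 95.3% of genes with 20 sites. Mtf2 had 8.27% and 9.0%, above 93.6% and 96.5% of genes. Eed had 9.76% and 6.40%, Ezh2 5.57% and 6.77%, Suz12 6.98% and 4.45%, and Ezh1 4.83% and 5.17%. All but Ezh1 lay above the all-gene medians in both replicates, and the spread between replicates at Eed and Suz12 was wider than at Jarid2. Phf19 had 6.26% and 7.25%, and Phf1, with 27 and 13 sites, had 5.91% and 5.90%.

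The PRC1 genes ranged more widely. Phc1, a PHC subunit, had the highest mean of the ranked members, 10.4% and 8.48%, above 98.9% and 95.1% of genes. Rnf2, the main H2A ubiquitin ligase of PRC1 in mESCs, had 7.39% and 6.31%, and its paralogue Ring1 had 11.9% over 37 sites and 6.78% over only 10 sites. Rybp had 7.83% and 7.79%, whereas Yaf2, its paralogue, had the lowest mean of the ranked members, 3.91% and 3.0%. Kdm2b, which binds unmethylated CpG islands and brings a variant PRC1 there, had 7.31% over 1161 sites and 6.51% over 438 sites. The PCGF genes Pcgf3 and Pcgf5 were low, with 4.18% and 2.97% at Pcgf3 and 5.07% and 2.31% at Pcgf5, and Pcgf2, the canonical PRC1 subunit, had 7.84% and 5.65%. Cbx7, the main CBX protein of mESCs, had 7.21% and 9.06%, and Cbx6 had 3.11% and 5.02%.

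The COMPASS and PR-DUB genes ran from 4.07% to 9.62% in replicate 1 and from 3.14% to 9.44% in replicate 2. Setd1b, a SET1-type methyltransferase, had 8.25% and 8.34%, and Cxxc1, which binds unmethylated CpGs as a subunit of the SET1 complexes, had 9.62% and 7.96%. Ash2l had 8.99% and 5.51%, and Dpy30 6.25% and 9.44%, so that both were above the all-gene medians with a wide spread between replicates. Kmt2d, which acts at enhancers, had 7.36% and 6.45%, whereas Kmt2c, its paralogue, had 4.07% over 792 sites and 3.39% over 350 sites. Kmt2a had 6.13% and 4.50%. In PR-DUB, Asxl1 had 7.49% and 7.20% and Bap1, the deubiquitinase, 4.51% and 3.14% over 73 and 19 sites. The order of neighbouring genes in this range is not resolved, since 2 replicates of 1 gene often differed by more than the next genes did.

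CC in the rest of the body also varied, from 10.2% at Ezh2 to 74.7% at Cbx8 in replicate 1. Cbx8, a CBX protein, had 74.7% and 56.7%, Cbx6 68.4% and 63.0%, Cbx7 58.3% and 50.5%, Setd1b 57.6% and 47.6%, and Dpy30 56.6% and 42.9%. Cxxc1 had 52.4% and 49.1%. The lowest among members with at least 20 sites in each replicate, by the mean, were Pcgf3, with 10.8% and 5.70%, Ezh2, with 10.2% and 7.37%, Pcgf5, with 11.3% and 6.23%, Wdr5, with 14% and 6.95%, and Phc3, with 12.4% and 9.34%. In rest-of-body values of members with at least 20 sites, HC/CH went with lower MM, with a Spearman rho of -0.41 over 40 members in replicate 1 and -0.71 over 35 in replicate 2, against -0.41 and -0.49 over all genes. These are correlations across genes of 1 library, which are not independent replicates, and the states of a site sum to a fixed total.

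To see where inside the bodies HC/CH lay, the bodies were divided into 1 kb windows, a step chosen after the data were seen. A window needed at least 5 covered sites in replicate 1 but only 3 in replicate 2. Windows were grouped by the CC level of the other replicate, so that the grouping and the level came from different libraries. Mean HC/CH in replicate 1 was 6.09% in the 453 windows with CC under 20%, 8.40% in 135 windows with CC of 20 to 40%, 7.96% in 85 windows of 40 to 60%, 4.96% in 47 windows of 60 to 80% and 2.14% in 38 windows above 80%. In replicate 2 the same groups had 4.62%, 7.53%, 7.21%, 4.78% and 2.79%. HC/CH was thus highest at intermediate CC in both libraries. MC/CM fell steadily in the same groups, from 13.4% to 2.00% in replicate 1. The grouping does not make HC/CH independent of CC. The states sum to a fixed total, and rest-of-body CC of 35 members correlated between replicates with a Pearson r of 0.98. Windows of high CC therefore leave little room for HC/CH. Windows over all genes are not given here.

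Of the 758 windows with a level in both replicates, 31 in 18 genes had a CC of 80% or more in both, and the centres of 15 of these lay within 1 kb of an annotated start. Kdm2b had such windows 88 and 89 kb after its principal start, the former 243 bp from the start of a shorter transcript, with a CC of 96.9% over 22 sites and 93.8% over 8 sites. Jarid2 had windows at 20, 23 and 24 kb, with a CC of 90.1% and 86.9% in the first, over 6 and 3 sites, and the start nearest to that window lay 17731 bp away. Setd1b had a window 15 kb after its start with 89.4% and 95.8%, over 10 and 4 sites, and the nearest start lay 5015 bp away. The share of such windows over all genes is not given here, so the count of 31 is not read against the genome.

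**Figure D4:**
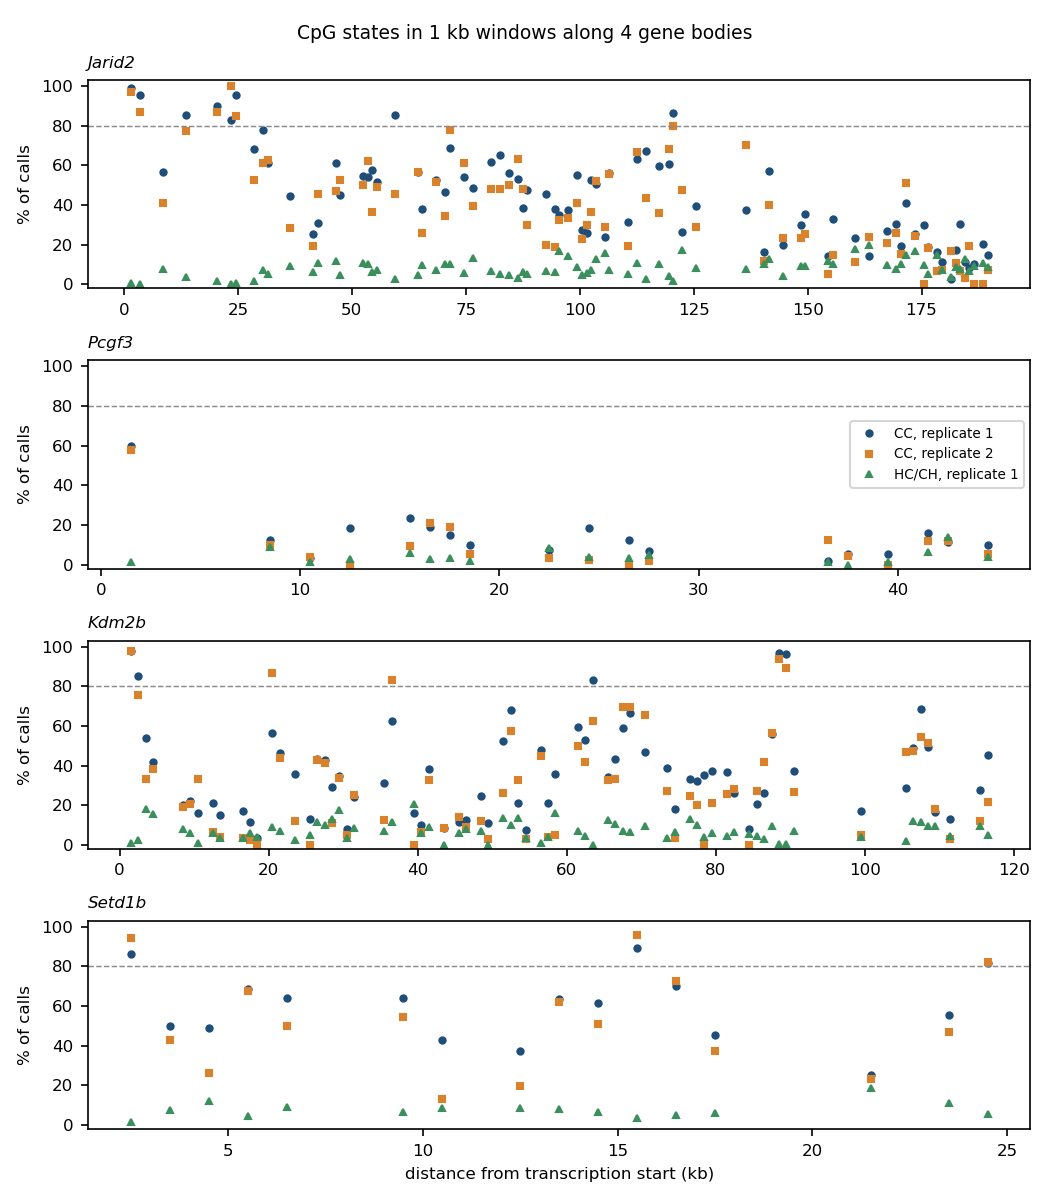
CC (circles, replicate 1; squares, replicate 2) and HC/CH (triangles, replicate 1) in 1 kb windows (vertical axis, % of calls) against distance from the transcription start (horizontal axis, kb) in Jarid2, Pcgf3, Kdm2b and Setd1b, with a dashed line at 80%. In Jarid2, CC falls from near 100% at the start to below 40% beyond 150 kb in most windows, Kdm2b has the unmodified windows at 88 and 89 kb, and Pcgf3 stays under 25% beyond its first window.

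Among the 219 windows with at least 10 sites in replicate 1 and 5 in replicate 2, those with the highest lower value of HC/CH were found in Setd1a, at 12.3% and 12.4% over 11 and 5 sites, and in Setd1b, 4 kb after the start, at 12.2% and 19.4%. Phc1 had 17.9% and 12% in a window 19 kb after its start, over 14 and 12 sites. Over these 219 windows the medians were 6.18% and 4.44%. These windows were picked for their values, which are therefore a description.

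At single sites the depth is low. Of 3804 member CpGs with at least 10 calls in replicate 1 and 5 in replicate 2, leaving out those of Cxxc1, for which no sequence is shown here, 44 had an HC/CH of 20% or more in both, 4 had 30% or more, and 1752 had no HC/CH call in either. At a site with 5 calls, 1 HC/CH call makes 20%. The shares over all CpG sites of that depth are not given here, so these counts are not read against the genome. The sites with the highest lower value are shown for their sequence context, with 60 bases on the plus strand of GRCm38.p6 and the CpG in capitals: Kdm2b in intron 2 (chr5:122985189-122985248), Kmt2c in intron 1 (chr5:25465322-25465381), Jarid2 in intron 5 (chr13:44888866-44888925), Phc3 in intron 7 (chr3:30938078-30938137) and Jarid2 in intron 1 (chr13:44768432-44768491).
Kdm2b, intron 2: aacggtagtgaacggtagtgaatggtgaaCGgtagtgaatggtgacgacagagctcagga
Kmt2c, intron 1: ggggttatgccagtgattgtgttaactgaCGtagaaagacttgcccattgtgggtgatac
Jarid2, intron 5: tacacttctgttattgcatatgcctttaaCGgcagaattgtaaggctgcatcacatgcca
Phc3, intron 7: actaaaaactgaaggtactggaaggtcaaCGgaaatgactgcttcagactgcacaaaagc
Jarid2, intron 1: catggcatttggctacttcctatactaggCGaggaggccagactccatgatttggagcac
The Kdm2b site had 4 HC/CH calls of 11 in replicate 1 and 2 of 5 in replicate 2. The Kmt2c site had 8 of 22 calls, or 36.4% (exact Clopper-Pearson 95% interval 17.2 to 59.3%), and 3 of 9. Its HC/CH calls were 1 HC and 7 CH in replicate 1, and 1 HC and 2 CH in replicate 2. The Jarid2 site in intron 5 had 5 of 16 and 3 of 5 calls, and the Phc3 site 5 of 16 and 3 of 9. Intervals cover counting error only, and the sites were picked for their values, which are therefore a description.

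The first intron differed from the rest of the body in methylation. Fisher's exact test on summed calls was run per replicate over all protein-coding genes with at least 10 sites in both regions, with Benjamini-Hochberg adjustment, and a gene was called where the adjusted p passed 0.05 in both replicates in the same direction. MM was lower in the first intron in 13 of the 17 members tested in both replicates, and 38.2% of the 7299 genes so tested were called in that direction. In replicate 1 alone, 19 of 21 members were lower, against 53.1% of 10582 genes. Phc2 was the only member called higher in both replicates, a call made at 7.37% of genes (14.5% in replicate 1 alone), and its principal transcript starts within methylated DNA. Counts of members called are read beside these shares of all genes, and no test of the difference in share was made. Calls on 1 DNA fragment are not independent, so these p-values are too small. With a test that uses the spread between sites, 10 of the 17 members were lower. The share of all genes called by that test is not given here, so this count is not read against the genome.

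The size of the difference varied among the members called. At Asxl1, a PR-DUB scaffold, MM in the first intron was 35.2 percentage points lower in summed calls in replicate 1 (adjusted p = 2.66e-60, Fisher's exact test) and 49.4 points lower in replicate 2 (adjusted p = 8.67e-26). At Ezh2 it was 29.3 and 25.0 points lower, at Eed 38.8 and 45.8, at Mtf2 25.6 and 36.6, and at Jarid2 19.2 and 21.3. Kmt2a, at 9.23 and 8.29 points, and Pcgf5, at 7.06 and 6.38 points, differed less. Also called lower in both were Asxl2, by 33.0 and 30.9 points, Bmi1, by 26.0 and 31.2, Rnf2, by 21.4 and 20.1, Kmt2d, by 25.5 and 16.4, Pcgf3, by 9.67 and 20.9, and Ezh1, by 5.12 and 18.5. Ezh1, Pcgf5 and Kmt2d were not called in both with the test that uses the spread between sites. The first intron of Eed was itself nearly unmodified, with a CC of 94.2% and 94.4%. Jarid2, with 728 CpGs in its first intron, had a CC of 58.9% and 56.0% there.

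HC/CH did not separate the regions in the same way. No member was called higher or lower in the first intron in both replicates, where 1.34% and 0.685% of genes were. At an unadjusted p under 0.05 in Fisher's exact test, 8 of 21 members in replicate 1 and 3 of 17 in replicate 2 differed in either direction, beside 27.7% and 16.3% of all genes, and with the test that uses the spread between sites 0 members were called in both. In replicate 1 alone, 6 of 21 members were lower (7.11% of genes), namely Suz12, Eed, Jarid2, Mtf2, Bmi1 and Phc2, and 1, Kmt2c, was higher (8.41% of genes). Of these, Suz12, Bmi1 and Phc2 were not called in replicate 1 with the test that uses the spread between sites. At Eed HC/CH in summed calls was 9.22 points lower in replicate 1 and 3.48 points lower in replicate 2, and at Mtf2 3.97 and 6.18 points lower. Kmt2c was 2.38 points higher in replicate 1 and 1.15 in replicate 2. Over the 12 members with at least 20 sites in both regions, the difference of mean HC/CH levels, first intron minus rest, was highest at Kmt2c, with 2.44 and 1.07 points, Ezh1, with 1.68 and 1.47, Pcgf5, with 1.10 and 0.712, Kmt2a, with -0.32 and 1.10, and Pcgf3, with 0.12 and 0.52. It was lowest at Mtf2, with -4.41 and -6.85 points, Asxl1, with -1.92 and -6.49, Jarid2, with -3.16 and -1.81, Phc2, with -2.0 and -2.95, and Ezh2, with 1.63 and -1.96. Ezh2 and Kmt2a had opposite signs in the replicates.

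**Figure D5:**
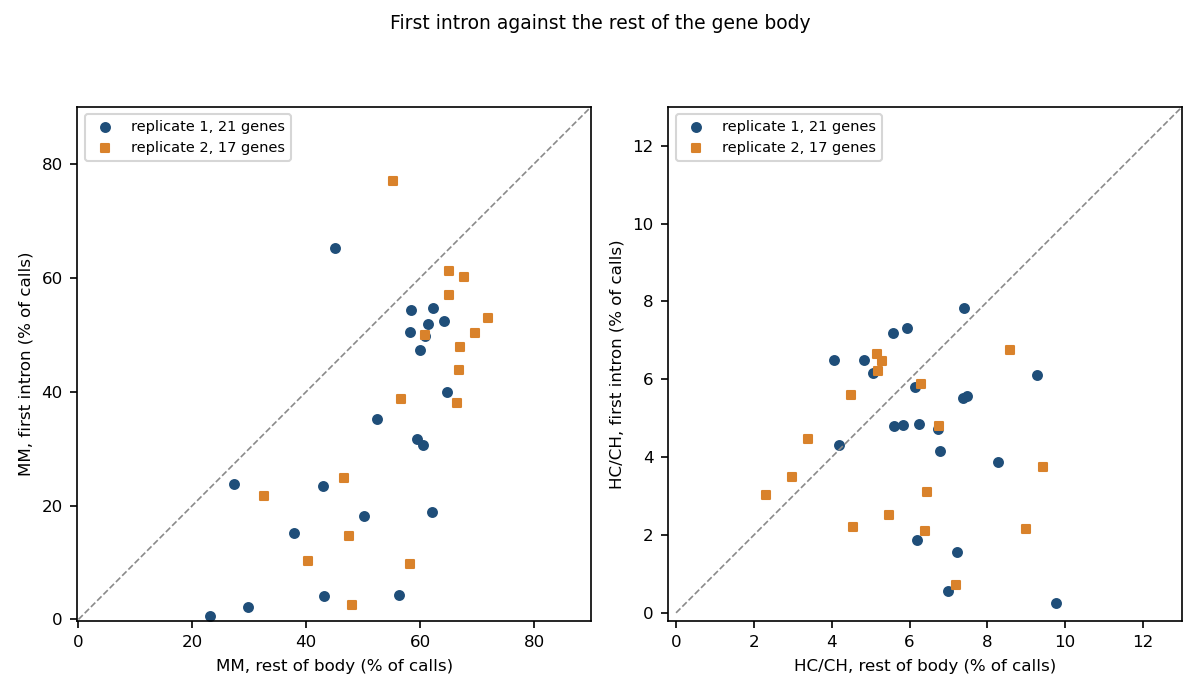
MM (left) and HC/CH (right) in the first intron (vertical axis, % of calls) against the rest of the body (horizontal axis, % of calls) for members with at least 10 sites in both regions, with replicate 1 as circles, replicate 2 as squares and the line of equality dashed. MM lies below the line for most members and above it for Phc2, and HC/CH lies on both sides.

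Within the body, meaning here the first intron and the rest together, hmC opposite C was compared with hmC opposite mC by an exact binomial test on the calls of each gene. As called, HC/CH was above HM/MH in 38 of 41 members in replicate 1 and 34 of 41 in replicate 2, against 67.3% and 80.5% of all genes, and after correction in 41 and 37 members, against 94.2% and 83.2%. The excess passed the test in both replicates in 9 of 40 members, where 8.35% of 16726 genes passed. In replicate 1 alone 23 of 41 members passed, against 21.7% of genes. The test used calls not corrected for miscalls, and in replicate 1 MM was called as HM/MH at 4.51% of calls on spike-in duplexes. The median body HM/MH of the members there was 4.46% as called and 2.05% corrected. Passing thus depends on the MM level and the number of calls of a gene. The share over genes with like numbers of calls is not given here. Excess of HM/MH was called in replicate 1 alone at 1 member, Yaf2, where 6.39% of genes were so called, and in both replicates at none (0% of genes). At Yaf2 the correction turned the direction in replicate 1, to an HC/CH of 3.39% against an HM/MH of 2.13%. With the test that uses the spread between sites, 6 members passed in both, and the share of all genes passing that test is not given here.

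Jarid2 had 1005 HC/CH and 535 HM/MH calls in replicate 1 and 258 and 135 in replicate 2 (adjusted p = 2.03e-30 and 1.21e-07, exact binomial test). Kdm2b had 841 and 502 calls in replicate 1, and 180 and 119 in replicate 2 (adjusted p = 4.02e-18 and 0.00766, exact binomial test). Rybp, with 249 and 136 calls in replicate 1 and 58 and 22 in replicate 2, Setd1b, with 218 and 115 and then 56 and 25, and Eed, with 157 and 64 and then 35 and 11, passed as well. So did Mtf2, Ezh2, Cbx7 and Dpy30, of which Ezh2, Cbx7 and Dpy30 were not called in both with the test that uses the spread between sites. After correction the ratio of HC/CH to HM/MH was 2.91 and 2.20 at Jarid2 and 2.63 and 2.63 at Setd1b, and at Kmt2c it was 2.31 and 1.48.

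The test of hmC on the sense against the antisense strand of the genes called no member. HC/CH calls in the member bodies fell with hmC on the sense strand in 3967 cases and on the antisense strand in 3983 in replicate 1, or 49.9% sense, and in 886 and 906 cases in replicate 2, or 49.4%. The test of sense against antisense hmC called 0 members of 40 in both replicates, and 0% of genes, in replicate 1 alone or in both. At an unadjusted p under 0.05 in the exact binomial test, 4 members in replicate 1 and 1 in replicate 2 passed, against 8.04% and 5.72% of all genes, and the test that uses the spread between sites also called 0. Among the 39 members with at least 20 such HC/CH calls in replicate 1, the sense share ran from 37.4% to 66.7%.

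A second list of 27 genes of the same complexes or their partners was read in the same way. Of the 27, 15 lay above the all-gene median of rest-of-body HC/CH in both replicates and 9 below, where 38.46% of all genes lay above and 38.45% below. Their medians were 5.60% and 4.79%. Aebp2, a PRC2 accessory subunit, had 8.5% and 7.95%, Usp7, a deubiquitinase of variant PRC1, 9.42% and 7.29%, and Ogt, a glycosyltransferase that binds PR-DUB, 8.85% and 10.8%. Sfmbt1 had 3.37% and 3.45%, and Ncoa6 3.35% and 2.97%. Epop, a PRC2 accessory protein, was nearly unmodified in its body, with a CC of 97.5% and 99.1%. At promoters, 18 of the 21 genes with a level in both replicates lay above the all-gene CC median in both, where 43.2% of all genes did. MM was called lower in the first intron in both replicates in 9 of the 13 genes tested, beside the 38.2% of all genes given above, and an excess of HC/CH over HM/MH was called in both replicates in 2 of 27, beside 8.35%.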

How the data were processed

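SCoTCH-seq libraries of 2 replicates of E14 mESC DNA were analysed. Per the labels and the paper's methods, the authors trimmed with cutadapt 4.6, aligned to GRCm38, removed duplicates with Picard 3.1.1 and assigned a CpG state to each pair of reads. The authors deposited the count of calls of each state at each CpG site, with the depth and the percent of calls per state, not corrected by spike-ins. Sites with fewer than 5 calls and blacklisted regions had been removed in each replicate. All sites lay on a CpG of GRCm38.p6.

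Gene spans and transcript starts came from GENCODE vM21. The principal transcript sets the start, the first intron and the promoter of 1 kb either side. The level of a state is the mean of per-site percentages, and calls were summed for tests. Call rates of the spike-in duplexes gave the correction, with the true state of a duplex site taken as its majority call and negative values set to 0. In each replicate MM, MC and HH had 2 duplex sites each, and CM, HC, CH and HM had 1 each. MH had 0 and took the rates of HM. The methylated DNA of bacteriophage lambda was not used for the rates. Fisher's exact test and the exact binomial test were run per replicate over all protein-coding genes with at least 10 sites. The tests were tried on simulated calls drawn independently of each other, without spread between sites or shared fragments. That trial cannot show how the tests hold for the real calls. The steps used Python, NumPy, pandas, SciPy and Matplotlib.

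The members, the lists and the tests were chosen with earlier results of these data known. The named genes are the 5 highest and 5 lowest members, by the mean of the replicates, for promoter CC and MM (at least 5 sites), for rest-of-body HC/CH, HM/MH and MM and for HC/CH of the first intron minus the rest of the body (at least 20 sites), 1 or more of each complex, and every member called. Other genes, sites and windows named were chosen after their values were seen. Alternatives were summed calls, correction, a minimum of 10 calls, sites in both replicates, the 5′ start of the span, a promoter of 500 bp either side, a minimum of 20 sites, a test with the spread between sites and each replicate left out. The 1 kb windows were added after the data were seen. The labels and the paper's methods give different shares of serum in the medium.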

Additional observations from a re-analysis of the deposited data

How the results depend on the processing

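Depth was 10.5 calls per member site in replicate 1 and 6.46 in replicate 2, and a call in both needs both libraries. No paired analysis was possible because there is 1 group. Values here are means of the replicates. Median promoter CC was 97.4% as reported, 98.6% corrected and 100% with 500 bp either side. Median promoter MM was 0.852%, and 0 with 500 bp either side. Median rest-of-body HC/CH was 6.19% and ranged from 5.65 to 6.73% with a replicate left out. Median rest-of-body HM/MH was 3.85%, and 2.53% corrected. Median rest-of-body MM was 56.2%, and 59.3% corrected, 54.6% at sites covered in both replicates, 53.0% with the start at the 5′ end of the span and 54.5% with 500 bp either side. Median first-intron HC/CH was 4.29%, and 5.22% with at least 10 calls per site, 3.47% with 500 bp either side and 5.10% with at least 20 sites. The counts of members called were 13 of 17 for lower first-intron MM (38.2% of genes) and 9 of 40 for HC/CH above HM/MH (8.35%). With at least 10 calls per site they were 1 of 2 tested and 0 of 11 tested. Members with lower first-intron HC/CH numbered 0 of 17 (0.685% of genes), against 2 of 19 with the start at the 5′ end of the span and 1 of 20 with 500 bp either side. In replicate 1 alone, the counts were 19 of 21 for lower MM (53.1% of genes) and 23 of 41 for HC/CH above HM/MH (21.7%). They were 6 of 21 for lower (7.11%) and 1 of 21 for higher first-intron HC/CH (8.41%). In replicate 2 alone, the same counts were 13 of 17, 11 of 40, 0 of 17 and 0 of 17. Shares of all genes are not given here for replicate 2 alone or for the other settings. The cause of these changes was not tested.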
